A study of Mus musculus with 10 samples.

Results

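Differentially methylated regions (DMRs) were described here for 4 LIM-homeobox genes, Lmx1a, Lmx1b, Isl1 and Lhx9. All DMRs whose nearest gene name was that of 1 of these genes were taken from the 4 deposited DMR tables, which gave 28 of 2132 DMRs. The members were thus selected on the measured differences in methylation between lymph nodes that put a DMR in its table, and these differences are given as a description, without a test. The 28 DMRs were 12 of Isl1, 9 of Lmx1b, 6 of Lmx1a and 1 of Lhx9. Of the 28 DMRs, 13 came from the comparison of nodes in specific pathogen-free (SPF) mice and 15 from the same comparison in germ-free (GF) mice. Neither of the tables that compared SPF with GF mice within a node, with 17 DMRs for mesenteric and 16 for peripheral nodes, held a DMR of these genes.

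The study profiled non-endothelial stromal cells (SCs), the mesenchymal cells that form the scaffold of lymph nodes, by whole-genome bisulfite sequencing. Bisulfite converts unmethylated cytosines but not methylated ones, so that the share of reads keeping a cytosine at a CpG is its methylation level. All 10 libraries came from BALB/c mice. Gut-draining mesenteric lymph nodes (mLN) gave 3 libraries under SPF and 2 under GF housing, and skin-draining peripheral lymph nodes (pLN) likewise gave 3 SPF and 2 GF libraries. GF mice were 6 to 10 weeks and SPF mice 7 to 12 weeks old by the study's methods, and SCs were sorted as podoplanin-positive cells lacking CD45, CD31 and Ter119. The tissue label of the pLN samples calls them skin-draining but also mesenteric, whereas their titles and the study call them pLN, the name used here. The GF colony had been derived at another institution. The study's methods give a line name for its SPF BALB/c mice and none for its GF mice. Housing therefore cannot be told apart from facility, line or age range. The labels do not say whether replicates were separate mice or pools, and the p-values below measure only the spread between these libraries.

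LIM-homeobox genes encode transcription factors that join a DNA-binding homeodomain to a pair of LIM domains, zinc-binding folds through which they assemble with cofactors such as Ldb1. They are known for assigning position and cell identity during development. Lmx1b specifies dorsal limb identity and is needed in kidney podocytes, Lmx1a acts in the roof plate and in midbrain dopaminergic neurons, Isl1 acts in motor neurons, heart progenitors and the hindlimb field, and Lhx9 is needed for formation of the gonad. Methylation of CpGs outside promoters often differs between tissues of different embryonic origin.

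DMRs of both tables that shared at least 1 bp were merged, which left 17 regions of these genes with 286 distinct CpGs. They are numbered for each gene from the 5′ to the 3′ side in the direction of transcription. Lmx1a had 3 regions, Lmx1b 6, Isl1 7 and Lhx9 1. Among the 1099 gene names next to a location DMR the median was 1 region, 5 names had more regions than Isl1 and 8 had more than Lmx1b. All 9 regions of Lmx1a and Lmx1b were less methylated in mLN than in pLN, and all 8 regions of Isl1 and Lhx9 were more methylated in mLN. Several regions in the same direction are common in these tables, since 59 of the 90 names with at least 3 regions (65.6%) had DMRs of a single direction.

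**Figure D1:**
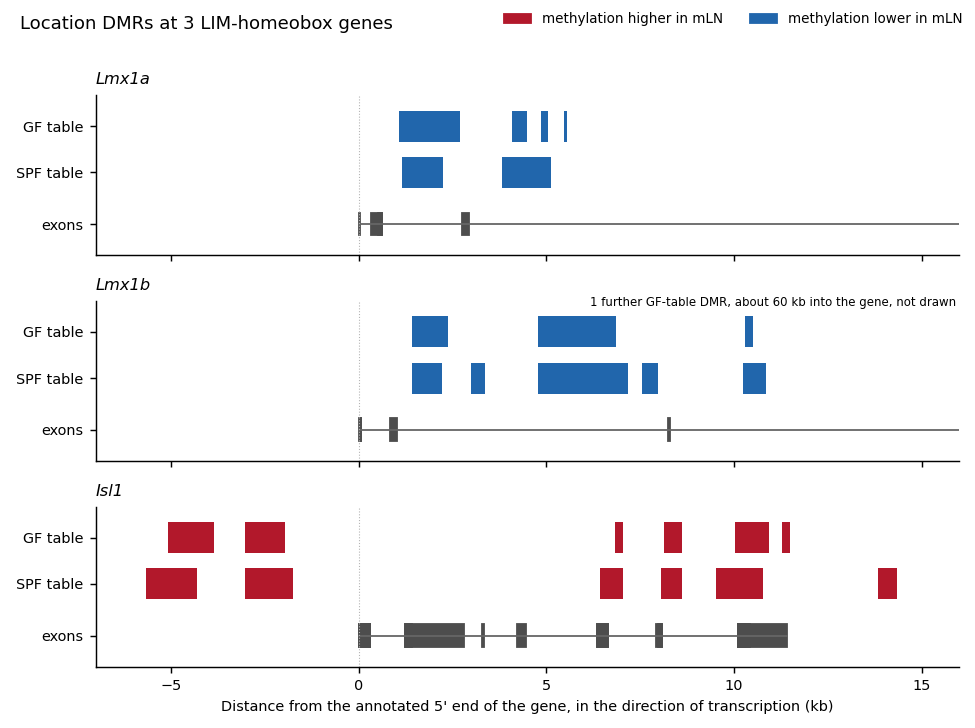
Positions of the location DMRs of Lmx1a, Lmx1b and Isl1, with distance from the annotated 5′ end of each gene in kb on the horizontal axis, exons of all annotated transcripts as grey boxes, and DMRs of the SPF and GF tables as coloured bars (red, higher in mLN, blue, lower in mLN). The DMRs of Lmx1a and Lmx1b lie inside the genes and are all lower in mLN, whereas those of Isl1 lie on both sides of the 5′ end and are all higher in mLN; Lmx1b region 6, 60079 bp into the gene, is not drawn.

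The sequences that carry the measured CpGs are shown for the window of at most 300 bases with the most measured CpGs in Lmx1a, Isl1 and Lhx9, outside annotated UTRs. They are forward-strand GRCm38 sequence, and capitals mark the CpGs measured in all 4 groups. The Lmx1a window is chr1:167690306-167690447, inside an intron of Lmx1a. The Isl1 window is chr13:116313628-116313906, upstream of the gene, and the Lhx9 window, which covers its only DMR, is chr1:138784576-138784728, in intergenic sequence downstream of the gene. A further Isl1 window, chr13:116302983-116303264, was added after the values were seen because it lies in the Isl1 region with the largest mean difference over both housings and reaches into coding exon 4, an exon that codes for homeodomain sequence.
Lmx1a window: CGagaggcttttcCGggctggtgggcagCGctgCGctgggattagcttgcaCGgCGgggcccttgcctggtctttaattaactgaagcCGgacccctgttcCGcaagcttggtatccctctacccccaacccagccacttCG
Isl1 upstream window: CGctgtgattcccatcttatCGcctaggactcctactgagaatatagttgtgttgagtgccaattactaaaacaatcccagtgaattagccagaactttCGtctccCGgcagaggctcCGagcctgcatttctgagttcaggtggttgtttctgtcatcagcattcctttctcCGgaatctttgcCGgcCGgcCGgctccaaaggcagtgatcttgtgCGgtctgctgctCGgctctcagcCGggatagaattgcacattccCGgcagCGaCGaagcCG
Isl1 exon 4 window: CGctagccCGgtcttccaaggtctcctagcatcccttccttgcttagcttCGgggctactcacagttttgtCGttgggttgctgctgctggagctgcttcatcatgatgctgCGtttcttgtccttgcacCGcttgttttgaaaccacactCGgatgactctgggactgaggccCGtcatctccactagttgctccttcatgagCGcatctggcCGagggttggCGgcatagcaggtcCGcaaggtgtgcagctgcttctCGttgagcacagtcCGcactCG
Lhx9 window: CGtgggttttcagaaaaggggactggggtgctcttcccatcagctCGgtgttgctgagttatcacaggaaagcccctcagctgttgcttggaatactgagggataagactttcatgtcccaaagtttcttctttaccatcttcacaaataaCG

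The 15 CpGs of the Isl1 exon 4 window averaged 59.6% in the 5 mLN libraries and 8.72% in the 5 pLN libraries, with 11 CpGs at which the nodes did not overlap. The CpGs of the Isl1 upstream window were less methylated in both nodes, with 28.3% in mLN and 6.41% in pLN over 16 CpGs, of which 1 did not overlap. The 9 CpGs of the Lmx1a window averaged 18.3% in mLN and 43.2% in pLN, with 1 that did not overlap, and the 3 CpGs of the Lhx9 window 48.3% and 34.1%, with none. Over all CpGs examined in the DMRs of the series, the nodes did not overlap at 33.0%. The exon 4 window was picked from the Isl1 region with the largest difference, which favours a high count there.

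Lmx1b had the largest mean difference of the 4 genes. Over its 93 CpGs, methylation was 17.5%, 18.0% and 21.5% in the mLN SPF libraries, 18.2% and 17.6% in mLN GF, 66.1%, 59.2% and 56.5% in pLN SPF, and 61.5% and 66.4% in pLN GF. All 5 mLN libraries lay far below all 5 pLN libraries. The mLN and pLN means were 19.0% ± 2.19 and 60.6% ± 4.98 (SD, n = 3 each) in SPF mice. In GF mice they were 17.9% ± 0.421 and 64.0% ± 3.45 (SD, n = 2 each). The mLN minus pLN difference was -41.7 percentage points in SPF and -46.1 in GF mice. In a sorted bulk population, another mixture of stromal subsets and another methylation level within the same cells cannot be told apart.

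All 6 Lmx1b regions lie in introns of the gene (GENCODE, GRCm38, chr2:33560965-33640511, minus strand). The longest was region 3, chr2:33633332-33635732, with 31 CpGs. It measured 13.5%, 11.5% and 14.6% in mLN SPF, 9.56% and 9.57% in mLN GF, 59.8%, 61.6% and 52.3% in pLN SPF, and 62.3% and 63.2% in pLN GF. The nodes were therefore separated at the level of the region. At 18 of its 31 CpGs no mLN library reached the lowest pLN library, beside 33.0% of all DMR CpGs without overlap in either direction. The CpG at chr2:33635330 is given because it had the largest difference of all Lmx1b CpGs. Its methylation was 0 in all 5 mLN libraries and between 50.0% and 100.0% in the pLN libraries, a difference in means of -74.2 points. The median difference over the CpGs of region 3 was -50.3 points.

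Region 1 of Lmx1b, chr2:33638124-33639078, the region nearest to the 5′ end, was more methylated in both nodes than region 3, with 30.0% to 41.9% in mLN and 77.7% to 86.2% in pLN. Regions of the same gene thus differed in level, while the direction was the same in all 6. Region 6, chr2:33579451-33580432, lies 60079 bp from the 5′ end and had the smallest difference of the 6, with -23.2 points in SPF and -32.1 points in GF mice. Region 4, chr2:33632550-33632955, lies 266 bp from the start of a shorter Lmx1b transcript by the distances in the deposited table.

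A further region of 84 CpGs lies beyond the 5′ end of Lmx1b and carries the name of C130021I20Rik, a non-coding gene annotated on the opposite strand. This region, chr2:33643620-33646265, starts 3109 bp from the 5′ end of Lmx1b and combines 3 DMRs. It was not among the 28 DMRs because the nearest start site is that of C130021I20Rik. Its methylation was between 7.61% and 11.1% in mLN and between 40.4% and 54.0% in pLN, the direction of Lmx1b.

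Lmx1a showed the same direction with a smaller difference. Over its 68 CpGs, methylation was 22.0%, 17.3% and 25.1% in mLN SPF, 15.8% and 22.1% in mLN GF, 46.9%, 47.2% and 49.5% in pLN SPF, and 50.6% and 56.2% in pLN GF. The nodes did not overlap. The group means were 21.5% ± 3.95 (SD, n = 3) and 47.9% ± 1.41 (SD, n = 3) in mLN and pLN of SPF mice, and 18.9% ± 4.49 (SD, n = 2) and 53.4% ± 3.97 (SD, n = 2) in GF mice, which gave differences of -26.4 and -34.4 points.

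All 3 Lmx1a regions lie in introns, between 1069 and 5541 bp downstream of the 5′ end (chr1:167689237-167848741, plus strand). Region 1, chr1:167690306-167691944, with 42 CpGs, measured 16.7% to 29.6% in mLN and 44.9% to 53.1% in pLN. Region 2, chr1:167693047-167694353, with 21 CpGs, measured 12.4% to 22.8% in mLN and 47.2% to 65.8% in pLN. Both were listed in both tables and did not overlap between nodes.

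Region 3 of Lmx1a, chr1:167694701-167694778, is a stretch of 78 bp with 5 CpGs from the GF table only. It measured 30.7%, 26.7% and 25.8% in mLN SPF, 10.7% and 13% in mLN GF, 28.6%, 46.7% and 45.6% in pLN SPF, and 45.7% and 42.2% in pLN GF. Replicate 1 of pLN SPF lay within the range of the mLN SPF libraries, so that the nodes overlapped in SPF mice.

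Isl1 had the opposite direction. Over its 122 CpGs, methylation was 61.2%, 55.7% and 49.7% in mLN SPF, 55.4% and 57.4% in mLN GF, 17.9%, 18.8% and 17.4% in pLN SPF, and 16.8% and 17% in pLN GF. All mLN libraries lay above all pLN libraries, and the pLN libraries stood within 2 points of each other. The group means were 55.5% ± 5.77 (SD, n = 3) against 18.0% ± 0.673 (SD, n = 3) in SPF and 56.4% ± 1.41 (SD, n = 2) against 16.9% ± 0.170 (SD, n = 2) in GF mice, differences of 37.5 and 39.5 points. The low level of Isl1 in pLN was close to the low level of Lmx1b in mLN, where the SPF means were 18.0% and 19.0%.

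The Isl1 regions leave out the 5′ end and much of the first part of the gene. Regions 1 and 2, chr13:116313551-116315355 and chr13:116311442-116312713, lie upstream, from position -5666 to -1753 bp relative to the 5′ end of the gene (chr13:116298281-116309689, minus strand). Regions 3 to 7 start 6426 bp into the gene and run past its 3′ end. A single RefSeq promoter window of 300 bases around a start site was taken for each of the 4 genes. None of these windows overlapped a region. The nearest region lay 699 bp from that of Lmx1a, 1504 bp from that of Isl1, 1971 bp from that of Lmx1b and 57668 bp from that of Lhx9. The windows leave out the starts of shorter transcripts. By the deposited distances, Isl1 region 3 and Lmx1b region 4 lie 87 and 266 bp from such starts.

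Isl1 region 3, chr13:116302657-116303263, had the largest difference of the Isl1 regions listed in both tables. It measured 73.8%, 67.6% and 52.5% in mLN SPF, 57.2% and 57.2% in mLN GF, 12.5%, 9.26% and 12.3% in pLN SPF, and 13.9% and 8.69% in pLN GF. No mLN library came near a pLN library. The region covers 218 bp of coding exon 4, whose 12 measured CpGs averaged 59.8% in mLN and 7.75% in pLN. At 9 of them the nodes did not overlap, beside 33.0% of all DMR CpGs. At chr13:116303221, given because it had the largest difference of all Isl1 CpGs, methylation was 80.0% to 100.0% in mLN and 0 to 22.2% in pLN. The median difference over the CpGs of region 3 was 47.3 points. By the deposited distances the region begins 87 bp from the start of a shorter Isl1 transcript.

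Region 4, chr13:116301071-116301640, covers 30 bp of coding exon 5, and region 5, chr13:116298748-116300178, covers 114 bp of coding exon 6 and part of the 3′ UTR. They measured 46.6% to 67.1% and 58.7% to 72.4% in mLN against 7.32% to 23.1% and 20.6% to 26.5% in pLN. Upstream of the gene, region 2 measured 55.0% to 63.7% in mLN and 15.4% to 24.4% in pLN. Region 1, the largest of the gene by CpG number, measured 40.5% to 46.6% in mLN and 11.3% to 16% in pLN over 42 CpGs. Thus the upstream and the gene-body regions shared the direction and separated all libraries by node.

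Among the mLN SPF libraries, replicate 3 stood nearest to the pLN SPF mean in 12 of the 17 regions, and this held for 48.6% of all 1575 location regions. Without it the SPF differences were -28.3 points for Lmx1a, -42.9 points for Lmx1b and 40.4 points for Isl1, each larger in size than with all libraries. Over the CpGs of each of these genes, replicate 3 was the mLN SPF library nearest to pLN. Leaving it out therefore had to enlarge the differences. The part of this library in the results was not tested further.

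**Figure D2:**
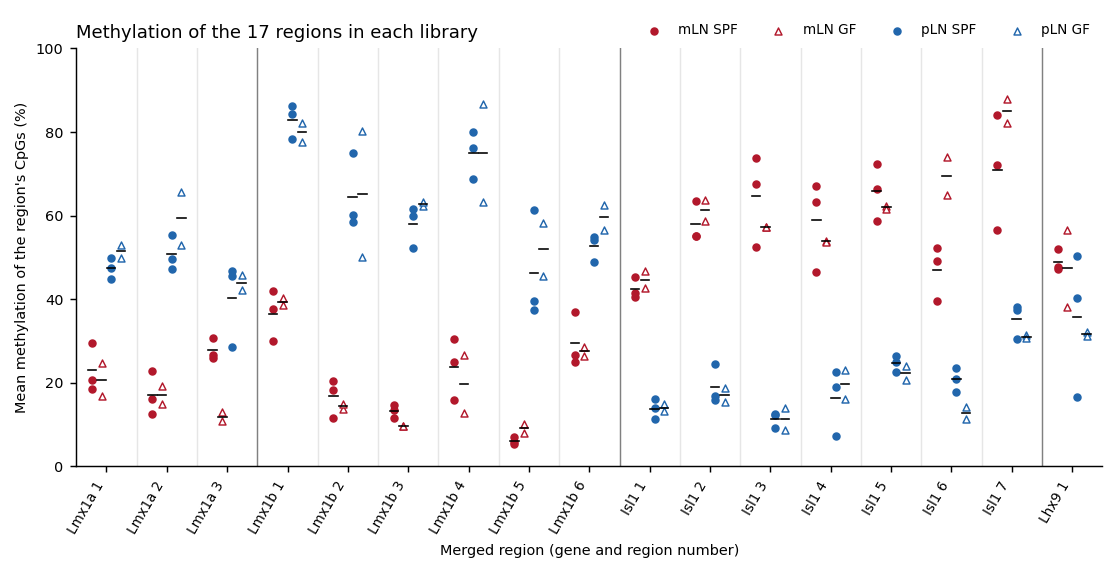
Mean methylation of the CpGs of each of the 17 regions in percent, by library (circles, SPF; triangles, GF; red, mLN; blue, pLN) with group means as black bars. In 15 regions the 5 mLN and the 5 pLN libraries do not overlap, and the 2 exceptions are Lmx1a region 3 and Lhx9 region 1.

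Lhx9 was represented by a single short DMR of the GF table, chr1:138784576-138784727, with 3 CpGs. It lies 57701 bp from the nearest annotated start of Lhx9 (chr1:138825186-138848577, minus strand) by the deposited distance, outside any annotated gene. Its methylation was 52.1%, 47.6% and 47.2% in mLN SPF, 38.1% and 56.7% in mLN GF, 16.7%, 40.3% and 50.2% in pLN SPF, and 32.2% and 31.2% in pLN GF. In SPF mice 1 of the 3 pLN libraries lay above 2 of the mLN libraries, and the 2 mLN GF libraries were 18.5 points apart. None of its 3 CpGs separated the nodes.

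Ordered by methylation in mLN SPF, the genes ranked Lmx1b (19.0% ± 2.19), Lmx1a (21.5% ± 3.95), Lhx9 (49.0% ± 2.70) and Isl1 (55.5% ± 5.77; SD, n = 3 each). In pLN SPF the order was Isl1 (18.0% ± 0.673), Lhx9 (35.7% ± 17.2), Lmx1a (47.9% ± 1.41) and Lmx1b (60.6% ± 4.98; SD, n = 3 each). Lmx1b and Lmx1a in mLN, and Lhx9 and Isl1 in mLN, differed by less than the sum of their SDs. In pLN, the means of Lhx9 and Isl1 and those of Lhx9 and Lmx1a likewise differed by less than the sum of their SDs, whereas the libraries of Lmx1a and Lmx1b did not overlap.

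CpG by CpG, 284 of the 286 CpGs (99.3%) had the direction of their DMR in the means of the nodes. The exceptions were a CpG of Lmx1a region 1, chr1:167691237, with 11% in mLN and 9.44% in pLN, and a CpG of Isl1 region 5, chr13:116298888, at 0 in all 10 libraries. The CpGs of a DMR were called together in a single direction, so that a high share is built in. The same share over all DMRs of the series is not given here. At 123 of the 286 CpGs (43.0%) the mLN and pLN libraries did not overlap, always in the direction of the DMR. The share was 54.8% for Lmx1b, 49.2% for Isl1, 17.6% for Lmx1a and 0 of 3 CpGs for Lhx9, beside 33.0% of all 24158 CpGs examined in the DMRs of the series. Among all 1575 location regions 79.9% did not overlap, beside 15 of the 17 regions here. Since the same libraries had been used to call the DMRs, these shares describe the regions and are no test.

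**Figure D3:**
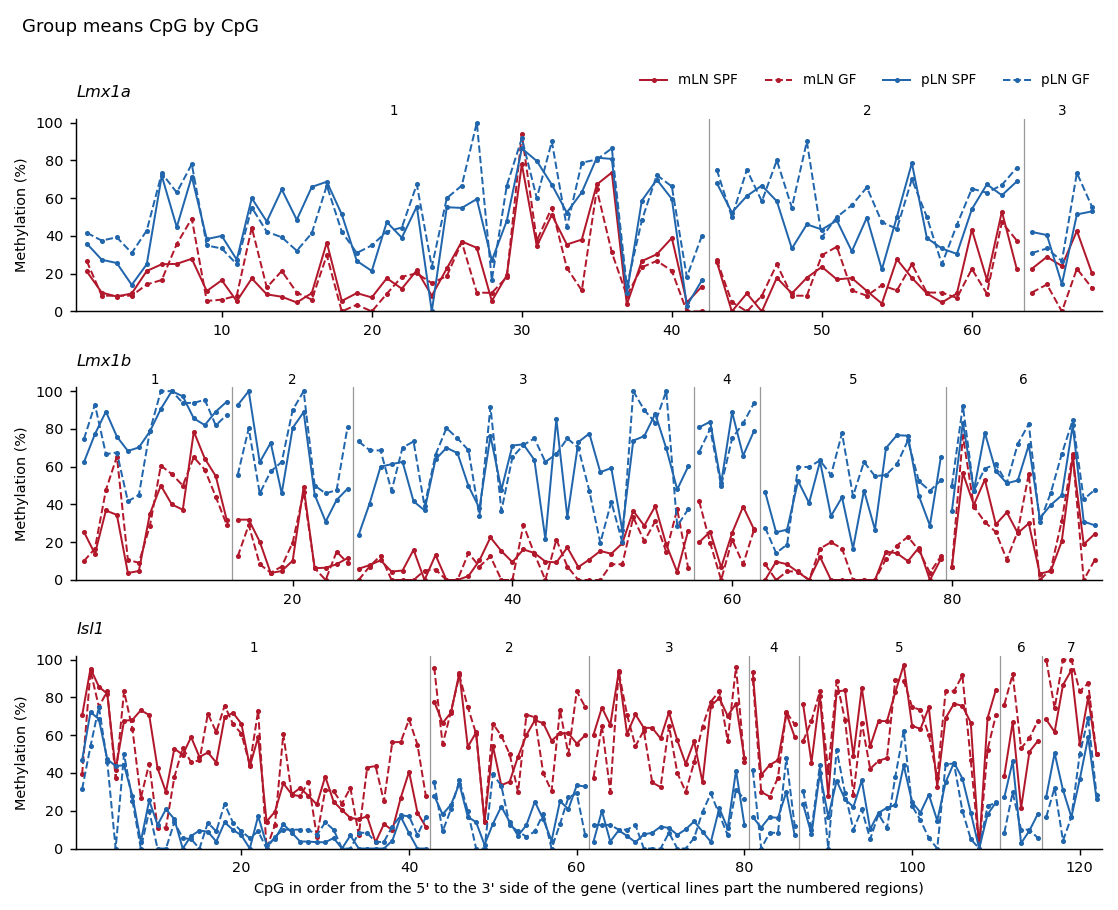
Mean methylation in percent of each CpG of Lmx1a, Lmx1b and Isl1 in the 4 groups (red, mLN; blue, pLN; solid, SPF; dashed, GF), with CpGs in order from the 5′ to the 3′ side and regions parted by vertical lines and numbered above. The mLN lines run below the pLN lines at 67 of 68 CpGs of Lmx1a and 93 of 93 of Lmx1b by the node means, and above them at 121 of 122 CpGs of Isl1.

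The 17 regions can be set beside all location regions. Their median length was 607 bp, beside 570 bp for all 1575, their median GC content 46.7% beside 46.3%, and their median CpG number 14 beside 12. The median methylation in the less methylated node was 18.3% beside 37.0%, and in the more methylated node 56.9% beside 67.5%. The median absolute difference was 38.8 points in SPF and 42.3 points in GF mice, beside 26.8 and 30.2 points.

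The next question was whether a difference called in mice of either housing was also present in the other. Of the 13 DMRs of the SPF table, 10 (76.9%) shared at least 1 bp with a member of the GF table, beside 55.6% of all 806 SPF DMRs. Of the 15 DMRs of the GF table, 11 (73.3%) overlapped a member of the SPF table, beside 40.2% of all 1293 GF DMRs. The 7 DMRs listed in a single table were tested in the libraries of the other housing, which had not been used to call them. These libraries still entered the choice of the 7, since they had given no overlapping DMR in their own table, and the background beside each count is of DMRs set apart in the same way. The model (limma) was fitted over the whole table of each comparison and p-values were adjusted over all its DMRs. Of these, 55.6% (SPF table) and 40.2% (GF table) overlapped DMRs called with the tested libraries, which makes the adjustment mild.

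All 3 DMRs of the SPF table alone were called in the 4 GF libraries (adjusted p under 0.05), beside a background of 78.5% of the 358 SPF DMRs without a GF counterpart. At Isl1 region 7, chr13:116295344-116295845, downstream of the gene, methylation was 87.9% and 82.1% in mLN GF and 31.5% and 30.6% in pLN GF. The difference was 54.0 points ± 4.29 (SE, limma adjusted p = 0.000487). Lmx1b region 4 measured 26.6% and 12.7% in mLN GF and 86.7% and 63.2% in pLN GF, a difference of -55.3 points ± 8.88 (SE, limma adjusted p = 0.00168). Lmx1b region 2, chr2:33637146-33637510, measured 13.8% and 14.9% in mLN GF and 50.1% and 80.2% in pLN GF, a difference of -50.8 points ± 9.63 (SE, limma adjusted p = 0.00318).

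Of the 4 DMRs of the GF table alone, 2 were called in the 6 SPF libraries, beside a background of 73.9% of the 773 GF DMRs without an SPF counterpart. Isl1 region 6, chr13:116298197-116298417, which spans the 3′ end of the gene, measured 49.2%, 52.2% and 39.6% in mLN SPF and 21%, 23.5% and 17.8% in pLN SPF, a difference of 26.3 points ± 4.84 (SE, limma adjusted p = 0.000643). Lmx1b region 6 measured 26.6%, 25.1% and 36.8% in mLN SPF and 54.8%, 48.9% and 54.3% in pLN SPF, a difference of -23.2 points ± 4.85 (SE, limma adjusted p = 0.00135). Lmx1a region 3 was not called, with a difference of -12.6 points (95% confidence interval, -25.0 to -0.151; limma adjusted p = 0.0573). Lhx9 region 1 was not called either, with 13.2 points (95% confidence interval, -3.50 to 30.0; limma adjusted p = 0.124).

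The values of the 2 uncalled DMRs moved with single libraries. Without replicate 1 of pLN SPF, the difference at Lmx1a region 3 was -18.4 points and was called (limma adjusted p = 0.00839), and that at Lhx9 region 1 was 3.70 points (limma adjusted p = 0.543). Without replicate 3 of pLN SPF, the Lhx9 difference was 20.5 points and was called (limma adjusted p = 0.0255). With 3 and 5 CpGs these are among the shortest DMRs of the 4 genes.

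**Figure D4:**
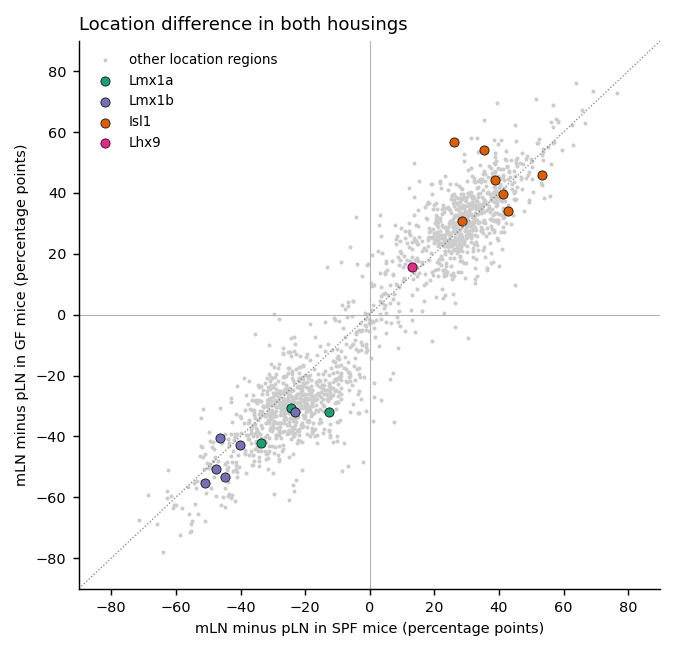
Difference in methylation between mLN and pLN in SPF mice (horizontal) and GF mice (vertical), in percentage points, for each merged location region (grey) and the 17 regions of Lmx1a, Lmx1b, Isl1 and Lhx9 (coloured by gene); the dotted line marks equal differences. Each of the 17 regions has the same direction in both housings. For the 10 regions listed in both tables this was set by the selection. Isl1 region 6, at 26.3 and 56.8 points, lies far from the line.

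Housing itself was compared over all 10 libraries with lymph node as a term. No region of the 4 genes was called among 1602 regions tested, beside a background of 0.0% (limma adjusted p under 0.05), and at an unadjusted p under 0.05 the number was 0 of 17 beside 4.49% of all regions. The SPF minus GF estimates of the 17 regions lay between -7.23 and 6.08 points, with 8 above and 9 below 0 and a median SE of 4.03 points. Their median absolute size was 2.47 points, beside 2.70 points for all location regions. For the gene-body region 3 of Isl1 the estimate was 3.72 points (95% confidence interval, -5.05 to 12.5), and for region 3 of Lmx1b it was -0.613 points (95% confidence interval, -7.31 to 6.08). Over all 17 regions the intervals reached from -19.3 to 16.3 points, so that housing differences of that size were not excluded at single regions.

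A difference between SPF and GF mice in the size of the location difference was tested as an interaction. No region of the 4 genes was called, beside 0.0% of 1602 regions (limma adjusted p under 0.05), and 2 of 17 had an unadjusted p under 0.05, beside 8.8% of all regions. Isl1 region 6 had the largest estimate of the 17. Its mLN minus pLN difference was 26.3 points in SPF and 56.8 points in GF mice, which gave an interaction of -30.6 points ± 6.88 (SE, limma unadjusted p = 0.00097, adjusted p = 0.287). Both mLN GF libraries (65.0% and 74.1%) lay above the 3 mLN SPF libraries (39.6% to 52.2%), and both pLN GF libraries (11.3% and 14.1%) lay below the 3 pLN SPF libraries (17.8% to 23.5%). Lmx1a region 3 followed with 19.5 points ± 7.71 (SE, limma unadjusted p = 0.0277, adjusted p = 0.504). Both regions are from the GF table alone, so that their GF difference had already been used to choose them, which favours a larger difference in GF mice.

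**Figure D5:**
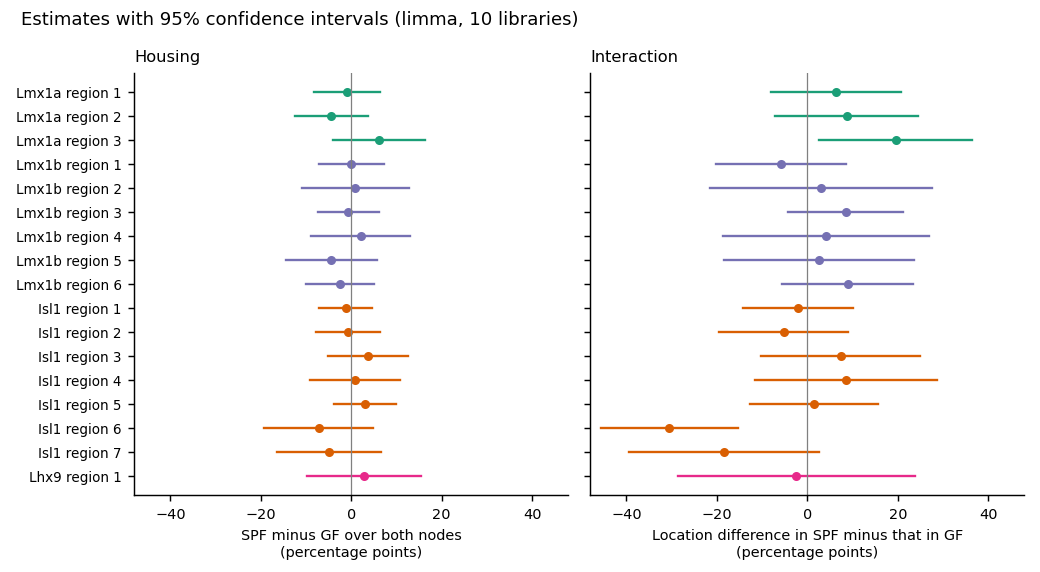
Estimates for the 17 regions with 95% confidence intervals from limma over 10 libraries, in percentage points, for the SPF minus GF difference (left) and for the location difference in SPF minus that in GF mice (right). The housing intervals of all 17 regions include 0, and on the right those of Isl1 region 6 and Lmx1a region 3 do not, before adjustment over 1602 regions.

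The other members of the family and their cofactors were examined from a list of 12 LIM-homeobox genes and 10 cofactor genes. Apart from the 4 genes described, none of the LIM-homeobox genes, Lhx1 to Lhx6, Lhx8 and Isl2, was the nearest gene of a location DMR. Of the cofactors, Lmo4, which encodes a LIM-only protein that competes for Ldb1, was the nearest gene of 3 DMRs of the GF table, each more than 100 kb from its start site. At the DMR of chr3:144309154-144309804 methylation was 43.7% to 52.0% in mLN and 21.5% to 28.5% in pLN. The other Lmo4 DMRs, chr3:144356370-144356800, higher in mLN, and chr3:144380426-144380578, lower in mLN, overlapped between nodes. Of 25 marker genes of stromal, endothelial, haematopoietic, erythroid, pericyte, epithelial and mesothelial cells, Cxcl13, a chemokine of lymph node stroma, was the nearest gene of a location DMR. RNA levels were not analysed here, so that the sorted cell type could not be checked by its markers.

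The genes with the most similar levels were searched among 743 names with at least 10 CpGs in location regions, by the root mean square difference over the 10 libraries. Nearest to Lmx1b were Emx2, a homeobox gene (3.05 points), and Twist1, a basic helix-loop-helix factor (5.00 points). Nearest to Lmx1a were Ric8b (2.89 points) and Zfp503 (3.37 points), and nearest to Isl1 were Gm22293 (2.65 points) and Rnf220 (3.11 points). For Lhx9 the nearest of 744 names, Gm13668 and Gm25148, were 8.95 and 9.59 points away. Names with a comparable level in both nodes rank as alike by this measure, whatever their function.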

How the data were processed

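The authors trimmed reads with cutadapt (version 1.4 in the submitters' processing notes, which also name FastQC 0.11.1), aligned them to GRCm38 with BSMAP (version 2.4.3) and called DMRs with bsseq between pairs of groups. The deposited DMR tables give for each DMR a CpG number and a mean difference of smoothed methylation (a score here, used for sign and for a stricter selection only), and the deposited CpG table gives, for every library, an unsmoothed fraction of methylated reads per CpG. Reads of BALB/c mice were aligned to a reference of another strain, so that a CpG lost in BALB/c can read as unmethylated in all libraries; 1 of the 286 CpGs was at 0 in all 10. Smoothing borrows from neighbouring CpGs, which can widen DMRs beyond the CpGs that differ.

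Fractions were turned into percent, and means were taken over CpGs with a value in each group (24158 of 24182), and all 24182 positions carried CG in GRCm38. Each library had a value at 99.6% to 99.9% of the CpGs. The reads behind each fraction were not used, so that counting error is unknown and short DMRs are the least precise. Replicate pairs had identical values at 11.4% to 14.2% of the CpGs, and all were kept as separate libraries. DMRs that shared at least 1 bp were merged into 1602 regions. A linear model with moderated variances (limma 3.58.1, R 4.3.3; percent scale, Benjamini-Hochberg adjusted p under 0.05 over the whole table or all 1602 regions) gave the location effect in the housing not used to call a DMR, the housing effect with node as a term, and the interaction, and was tested on simulated data. Annotation was GENCODE M21, and promoter windows were from RefSeq (GRCm38.p6). Same-numbered libraries were not treated as pairs in the main model. Their deviations from the group means over all location regions correlated between -0.034 and 0.043, with pairs across housing included. These values cannot show whether same-numbered libraries of the 2 nodes came from the same mice, which the labels do not say.

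The genes, gene lists and tests were chosen with earlier results of these data known. Named are all DMRs of the 4 genes, listed family genes with a DMR, and the 2 genes most alike to each by level. Alternatives were complete CpGs, medians, a logit scale, a variance trend, a replicate block, at least 5 CpGs, a difference of at least 0.35, assignment within 20 kb of the gene body, an overlap of at least 0.5 of the shorter DMR, and leaving out each replicate. By its reporting summary the study left out an outlying GF replicate of each node; they were not analysed here. The sequence window of Lmx1b is not reported here.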

Additional observations from a re-analysis of the deposited data

Results flagged for a closer look

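In Lmx1a region 3, replicate 1 of pLN SPF measured 28.6%, far from the other 4 pLN libraries, which lay between 42.2% and 46.7%. The gap was 0.754 of the range of the 5 pLN libraries, above Dixon's 95% critical value of 0.71. The study's own groups of 2 or 3 libraries are too small for this criterion, and 34 sets of 5 libraries of a node were examined, of which chance flags about 1 in 20. The cause was not tested.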

How the results depend on the processing

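Taking the median over the CpGs in place of the mean moved the mLN minus pLN difference of Lmx1a in SPF mice to -34.0 points, of Lmx1b to -47.6 (SPF) and -51.5 (GF), and of Isl1 to 44.8 (SPF) and 43.1 (GF), all in the same direction and larger in size. The median also made Lhx9 region 1 pass in the SPF libraries (19.5 points, limma adjusted p = 0.0337), and with DMRs of at least 5 CpGs, which leaves out Lhx9, Lmx1a region 3 passed (limma adjusted p = 0.0418). With the authors' difference of at least 0.35, 7 of 11 GF DMRs were shared with the SPF table in place of 11 of 15, and 3 genes of the family and cofactor lists had a location DMR in place of 5, since Lhx9 and Lmo4 dropped out. The same limit left 2 of 6 DMRs at Lmx1a, 8 of 9 at Lmx1b and 11 of 12 at Isl1. Assigning DMRs within 20 kb of the gene body gave 30 DMRs, 3 more at Lmx1b and none at Lhx9. Leaving out 1 library at a time gave differences of -28.3 to -24.3 (Lmx1a, SPF), -37.6 to -31.3 (Lmx1a, GF), -43.7 to -38.9 (Lmx1b, SPF), -48.5 to -43.6 (Lmx1b, GF), 34.7 to 40.4 (Isl1, SPF), 38.5 to 40.5 (Isl1, GF), 3.70 to 20.5 (Lhx9, SPF) and 6.44 to 25.0 points (Lhx9, GF). The nodes then did not overlap at 128 to 147 CpGs, beside 123 with all libraries. This count cannot fall when a library is left out, so that its rise is no result. The Lhx9 values fell lowest without pLN SPF replicate 1 and without mLN GF replicate 2. With the replicate number as a block, 3 of 3 SPF-table and 2 of 4 GF-table DMRs were called in the other housing, and 0 housing and 0 interaction effects, as without the block, so that it changed no call. Under every alternative run, 0 of the 17 regions were called for housing or interaction.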
